A study of Mus musculus with 461 samples.

Results

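Esrp1, Esrp2, Mbnl1, Mbnl2, Mbnl3 and Rbfox2 are 6 of the 31673 genes in the expression tables. They were chosen by symbol as tissue-type regulators of alternative splicing, with earlier results of these data known. Each symbol matched a single row of the TPM table and a single Ensembl identifier of the count table. TPM is transcript abundance scaled for transcript length and for the total of the cell. The study followed the 7F reprogramming system by single-cell RNA sequencing of 461 mouse cells captured on the Fluidigm C1 system at days 0, 1, 3, 4, 5 and 7. The cells began as OG2 transgenic mouse embryonic fibroblasts (MEFs), connective tissue cells that carry a green fluorescent reporter driven by Oct4 (Pou5f1) regulatory DNA, on a mixed background of 1/2 129SVJ, 3/8 C57B6 and 1/8 CBA. MEFs were kept in medium with 10% FBS and reprogramming cells in iCD1 medium, so medium and time change together and their effects cannot be told apart. The labels do not name the 7F factors, and give no age or sex of the embryos.

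Each title carries a prefix, b1, b2 or b3, whose meaning the labels do not give. The prefix and the day together define 10 sets of cells: b1 has 20 cells at day 0, 61 at day 3, 5 at day 5 and 2 at day 7; b2 has 54, 58, 58, 79 and 65 cells at days 0, 1, 3, 5 and 7; b3 has 59 cells at day 4 only. Counts per cell ran from 318867 to 6998547, with 6270 to 12141 genes detected per cell, and the median cell of a set of 10 or more ran from 982736 counts at day 4 to 3305752 counts in the b2 set of day 0. No cell had the same counts as another. Levels below are CPM, the summed counts of a set scaled to its library total and by TMM (trimmed mean of M values), when a gene is compared with itself, and TPM when genes are compared with each other. Tests were edgeR quasi-likelihood F tests, two-sided, on the 8 sets of 10 or more cells, with p adjusted by the Benjamini-Hochberg method over 22378 genes. Only days 0 and 3 have 2 such sets each, and nothing in the labels says that the sets are separate cultures. The p-values therefore rest on the spread between these sets, which may be technical. The fit took that spread from the trend over all genes (infinite prior degrees of freedom), so a gene's own spread carried no weight. The 5 comparisons with day 0 share the same day 0 cells, so their values are given side by side.

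Alternative splicing joins different exons of a gene into different messenger RNAs, and RNA-binding proteins set the choice by binding near the exons. Esrp1 and Esrp2 are the epithelial splicing regulatory proteins, which bind GGU-rich RNA and maintain the exon patterns of epithelial cells. The muscleblind-like proteins Mbnl1, Mbnl2 and Mbnl3 are zinc-finger proteins known for their loss of function in myotonic dystrophy and for repressing exons that embryonic stem cells include, and Rbfox2 binds UGCAUG and is used in fibroblasts, neurons and stem cells. All values here are totals per gene and show nothing of exon use.

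Esrp1 was the member that appeared during the time course. It had 0 counts in both day 0 sets, in the day 1 set and in the b1 set of day 3, and 2 counts in the b2 set of day 3. The day 4 set had 132 counts (1.97 CPM), the b2 set of day 5 had 3641 counts (19.5 CPM) and the b2 set of day 7 had 1792 counts (8.55 CPM). A floor of 3 counts was taken over the 2 day 0 sets. The level was 136 times this floor at day 4, 1345 times at day 5 and 589.6 times at day 7. The floor covers the counting of reads only, and not which cells were sampled, so these are not lower limits on the rise. Every set from day 4 on that has 10 or more cells thus lay above every earlier set.

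The rise of Esrp1 over day 0 passed the test at day 4 (edgeR adjusted p = 0.00711), day 5 (0.000165) and day 7 (0.00046). Against the 2 counts of day 3, the day 5 level was 3337 times as high, with a 95% counting interval of 923.1 to 27560 (edgeR adjusted p = 0.00146). Both counts came from b2, and within b2 alone the day 5 level was 1274 times as high. The counting interval treats reads as independent and leaves out the spread between cells. From day 5 to day 7 no change passed the test (log2 fold change -1.19, edgeR adjusted p = 1). Leaving out the b2 cells of day 0 ended the day 4 call (adjusted p = 0.0797), and leaving out the b1 or b2 cells of day 3 ended the call of day 5 against day 3 (0.364 and 0.0852). With the 2 small b1 sets added to the fit, Esrp1 missed the threshold at days 4, 5 and 7 (0.461, 0.108 and 0.103). With the prefix as a block it missed it too (0.274, 0.123 and 0.128, and 0.427 for day 5 against day 3). Day 4 holds only b3 cells, so day and prefix cannot be told apart there. Within b2, 3 counts in the day 0 set were taken as the floor. The level was 982.6 times this floor at day 5 and 430.9 times at day 7. The days with 2 sets in the fit hold only 2 Esrp1 counts in all, so its spread where expressed was not measured.

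Few cells held Esrp1. No cell had a TPM of 1 or more before day 4. At 3 cells as the limit, 0 of 20 cells in the b1 set of day 0 allows a share of up to 15%, 0 of 54 in the b2 set of day 0 a share of up to 5.56%, and 0 of 61 cells in the b1 set of day 3 a share of up to 4.92%. At day 4, 7 of 59 cells passed that level (11.9%, exact Clopper-Pearson 95% interval 4.91 to 22.9%). At day 5 it was 15 of 79 cells (18.99%, 11.03 to 29.4%), and at day 7 it was 11 of 65 (16.9%, 8.76 to 28.3%). The intervals of these 3 days overlap. Here and below, such intervals cover the counting of cells within 1 set only, and not the spread between sets. These reads also carry no molecular identifiers.

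Within the Esrp1 cells the level was uneven. The median TPM of the cells at 1 TPM or more was 5.35 at day 4, 14 at day 5 and 20.4 at day 7. In the day 5 set the highest cell (200.2 TPM) held 38.3% of all Esrp1 counts and the highest 3 cells held 70.9%. In the day 7 set the highest 3 cells held 49.9%. With the highest cell of each gene left out of each set, Esrp1 was still called higher at day 5 (adjusted p = 0.00259) and at day 7 (0.00309). With every cell thinned to 300000 counts, 11.9% of cells at day 4, 18.99% at day 5 and 16.9% at day 7 had 1 count or more, against 13.6%, 24.1% and 18.5% before thinning.

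Esrp2, its paralog, followed another course. The day 0 sets had 2.28 CPM (b1) and 3.46 CPM (b2). Day 1 had 11.1 CPM, day 3 had 12.1 and 13.4 CPM, day 4 had 5.91 CPM, day 5 had 8.69 CPM and day 7 had 20.5 CPM. These 6 later sets lay above both day 0 sets. The small b1 sets, outside the fit, lay below both, with 0.0133 CPM in the 5 cells of day 5 and 0.999 CPM in the 2 cells of day 7. The fitted log2 fold changes over day 0 were 1.95 ± 1.28 (SE) at day 1, 2.15 ± 1.13 at day 3, 1.04 at day 4, 1.60 at day 5 and 2.83 ± 1.28 at day 7, and none passed the test (edgeR adjusted p = 0.924, 0.458, 0.974, 0.697 and 0.214). The DESeq2 fit of the same sets called Esrp2 higher at day 3 (adjusted p = 0.0117) and day 7 (0.00234).

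The share of cells with Esrp2 at 1 TPM or more was largest in the sets of days 1, 3 and 4. At 1 TPM or more it was in 2 of 20 and 5 of 54 cells (9.26%) of the day 0 sets, and in 36.2% at day 1, 32.8% and 41.4% in the day 3 sets and 37.3% at day 4, then 20.3% at day 5 and 13 of 65 cells at day 7. The intervals of the b2 sets of day 0 (3.08 to 20.3%) and day 1 (23.99 to 49.9%) do not overlap, and that of day 7 (11.1 to 31.8%) overlaps both. The interval of day 5 (12.04 to 30.8%) overlaps those of day 1, both day 3 sets and day 4. These intervals leave out the spread between sets. The order also depended on the level. At 1 count or more the share was 51.7% at day 1, 44.3% and 62.1% at day 3 and 54.2% at day 4. By that count it was 51.9% at day 5 and 32.3% at day 7. Mean TPM over cells was 6.45 at day 7, where 1 cell held 30.5% of the Esrp2 counts and the highest 3 held 69.2%. In the day 0 sets 1 cell held 80.3% (b1) and 61% (b2) of the Esrp2 counts. In the day 5 set the mean TPM of Esrp1, 6.52, stood above that of Esrp2, 3.54, and at day 7 the order was the reverse, 3.72 against 6.45. Both genes were at 1 TPM or more in 3 of 59 cells at day 4, 4 of 79 at day 5 and 4 of 65 at day 7, where 22, 16 and 13 cells had Esrp2.

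**Figure D1:**
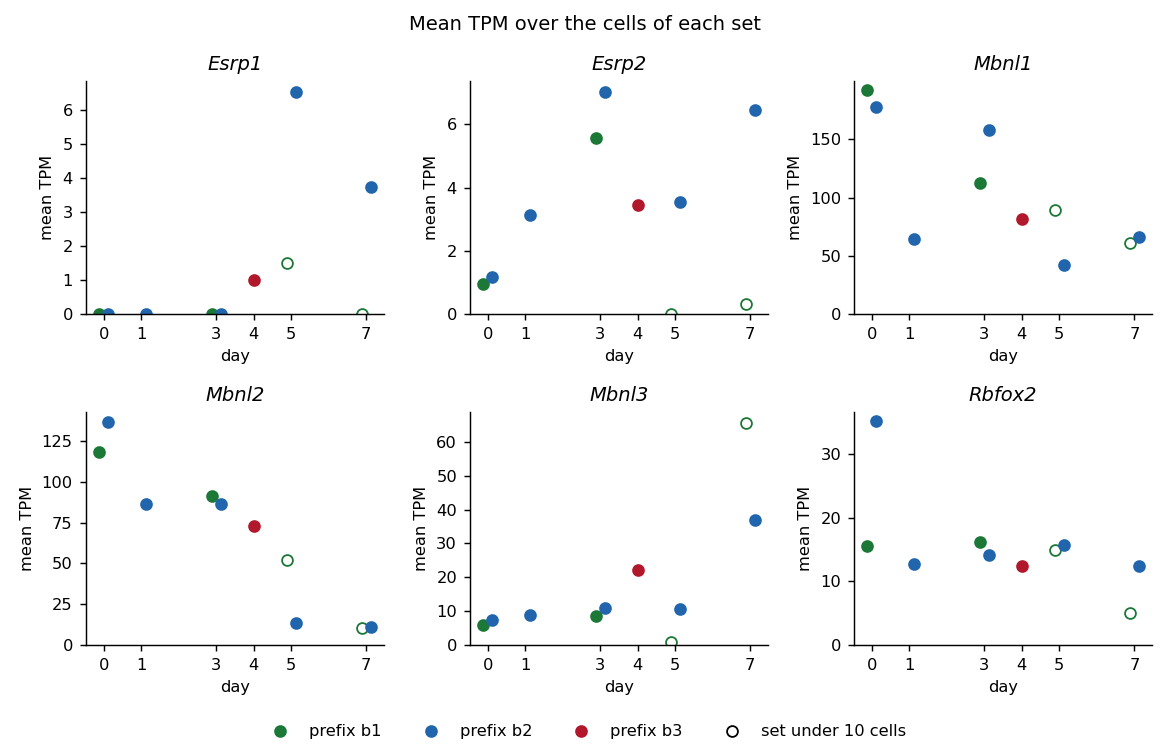
Mean TPM over the cells of each set (vertical axis, own scale per gene, from 0) by day (horizontal axis) for the 6 genes. Each point is 1 set, colored by title prefix, and open points are the sets of 5 and 2 cells. Esrp1 leaves 0 at day 4, and Mbnl2 falls from 118.5 and 137 TPM at day 0 to 11.3 TPM in the b2 set of day 7.

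Of the 3 muscleblind genes, Mbnl2 had the largest fitted fall, though the difference between the genes was not tested. Its summed level was 405 and 557 CPM in the day 0 sets, 356 CPM at day 1, 237 and 281 CPM in the day 3 sets, 214 CPM at day 4, 45.7 CPM at day 5 and 37.5 CPM at day 7. The levels thus ordered as the days did, and no later set reached the lower day 0 set. The log2 fold change against day 0 was -3.39 ± 0.572 (SE) at day 5 (edgeR adjusted p = 4.38e-07) and -3.68 ± 0.582 at day 7 (3.17e-08). It was -0.43 at day 1 (adjusted p = 1), -0.89 at day 3 (0.29) and -1.17 at day 4 (0.3), none past the threshold. Day 5 lay below day 3 by a log2 fold change of -2.50 ± 0.542 (adjusted p = 0.000711), and day 7 did not differ from day 5 by the test (-0.29, adjusted p = 1).

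Within the b2 sets, which cover 5 days, Mbnl2 stood at 0.640, 0.504, 0.0822 and 0.0674 times its day 0 level at days 1, 3, 5 and 7. The b1 sets gave 0.586 times at day 3. The 5 cells of the b1 set of day 5, outside the fit, had 139.9 CPM, between the day 4 and the b2 day 5 values, and the 2 b1 cells of day 7 had 39.4 CPM. With these 2 small sets in the fit, Mbnl2 was called at day 7 (adjusted p = 0.00135) and missed the threshold at day 5 (0.0573). Leaving out the b2 cells of day 3 ended the call of day 5 against day 3 (adjusted p = 0.056), as did the prefix as a block (0.0881).

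Fewer cells held Mbnl2 at the late days. It was at 1 TPM or more in 20 of 20 and 53 of 54 cells at day 0, in 58 of 58 at day 1, in 61 of 61 and 58 of 58 at day 3 and in 57 of 59 at day 4. At day 5 it was in 46 of 79 cells (58.2%, 46.6 to 69.2%) and at day 7 in 25 of 65 (38.5%, 26.7 to 51.4%). The interval of day 5 lies below that of every earlier set of 10 or more cells. These intervals cover the counting of cells within 1 set and not the spread between sets. The median cell went from 98.4 and 129 TPM at day 0 to 47 TPM at day 4, 3.83 TPM at day 5 and 0.26 TPM at day 7. At 300000 counts per cell, 100% of cells had a Mbnl2 count at days 0 to 4, against 65.8% at day 5 and 44.6% at day 7 (70.9% and 61.5% before thinning).

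Mbnl1 fell as well, with less order between the days. It had 307 and 370.0 CPM in the day 0 sets, 157 CPM at day 1, 140.0 and 325 CPM in the day 3 sets, 146 CPM at day 4, 60.7 CPM at day 5 and 89.6 CPM at day 7. The day 3 sets differ widely from each other, and the b2 set lies inside the range of day 0. The log2 fold change against day 0 was -2.48 ± 0.558 (SE) at day 5 (edgeR adjusted p = 0.000499) and -1.92 ± 0.54 at day 7 (0.00968). It was -1.11 at day 1 (adjusted p = 0.581), -0.54 at day 3 (0.689) and -1.21 at day 4 (0.294).

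Day 5 also lay below day 3 for Mbnl1 (log2 fold change -1.94 ± 0.54, edgeR adjusted p = 0.0245). That call ended when the day 3 cells of b1 (0.0603) or of b2 (1) were left out, and so did the day 7 call (0.0503 and 0.0577). The 5 b1 cells of day 5, outside the fit, had 180.6 CPM of Mbnl1, and the 2 b1 cells of day 7 had 142.5 CPM. Both values lay above the b2 set of the same day and below both day 0 sets. In these small sets 1 cell held 88.9% and 79.2% of the counts. With the 2 small b1 sets in the fit Mbnl1 missed the threshold at days 5 and 7 (0.424 and 0.239). With the prefix as a block it missed the threshold at day 7 (0.0644) and for day 5 against day 3 (0.212). Cells at 1 TPM or more made up 19 of 20 and 51 of 54 cells at day 0, then 98.3% of cells at day 1, 96.7% and 96.6% at day 3, 89.8% at day 4, 67.1% at day 5 (55.6 to 77.3%) and 66.2% at day 7 (53.4 to 77.4%). The median cell went from 88.4 and 103.3 TPM at day 0 to 5.47 TPM at day 5 and 5.30 TPM at day 7. The highest cell was at 1038 and 1415 TPM at day 0 and 606 and 852 TPM in the b2 sets of days 5 and 7.

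**Figure D2:**
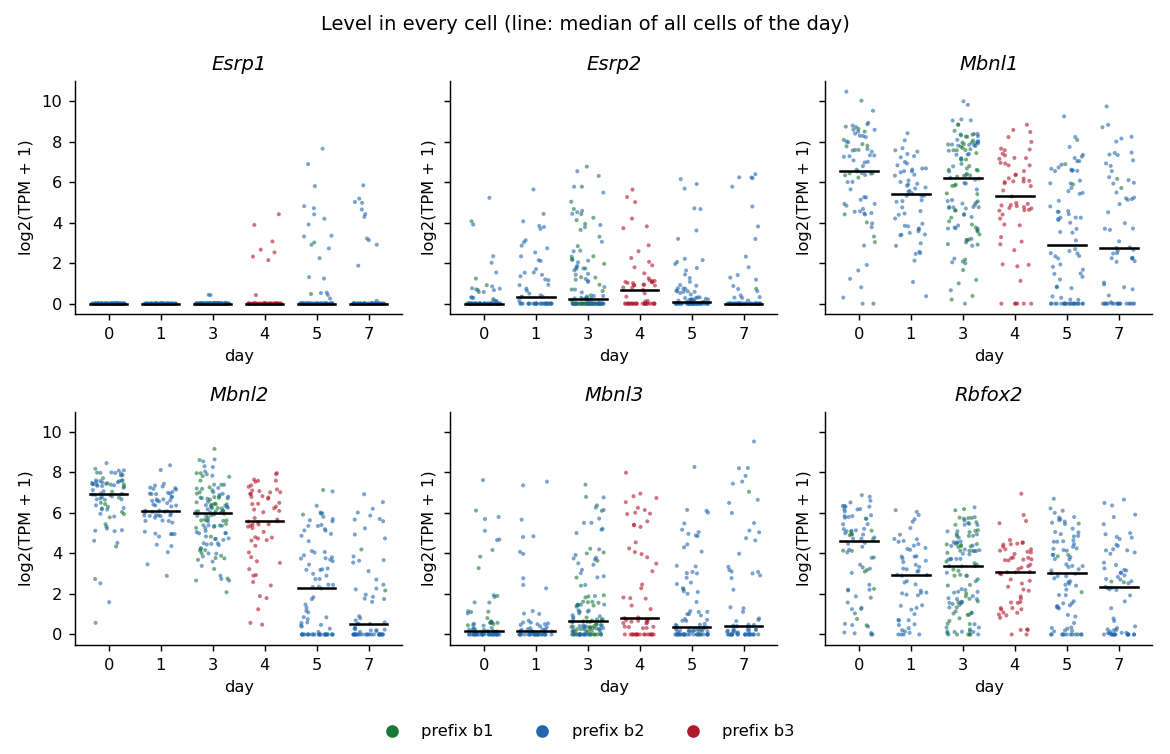
Level in every cell as log2(TPM + 1) (vertical axis) by day (horizontal axis), with points colored by title prefix and a line at the median of all cells of the day. Mbnl1 and Mbnl2 spread down to 0 at days 5 and 7, while Esrp1 is above 0 in few cells from day 4 on.

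Mbnl3, the X-linked paralog, was not called in any comparison. Its sets held 9.09 and 12.8 CPM at day 0, 18.7 CPM at day 1, 10.5 and 17.3 CPM at day 3, 27.3 CPM at day 4, 19.6 CPM at day 5 and 42.04 CPM at day 7. Among these sets day 3 overlaps day 0, and the other 4 days lie above it. The 5 b1 cells of day 5, outside the fit, had 1.204 CPM, below both day 0 sets, and with the small sets in the fit the day 5 log2 fold change turned to -0.07. The 2 b1 cells of day 7 had 81.1 CPM. The log2 fold change was 0.84 at day 5 (edgeR adjusted p = 0.848) and 1.94 ± 0.934 (SE) at day 7 (0.26). DESeq2 called it higher at day 7 (adjusted p = 0.027).

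Cells with Mbnl3 at 1 TPM or more were 8 of 20 and 11 of 54 at day 0, 13 of 58 at day 1, 22 of 61 and 29 of 58 at day 3, 28 of 59 at day 4, 31 of 79 (39.2%) at day 5 and 26 of 65 at day 7, and among these sets the exact interval of the 20 b1 cells of day 0 (19.1 to 63.95%) overlaps all others. These intervals cover the counting of cells within a set alone. The interval of the b2 set of day 0 (10.6 to 33.5%) lies below those of the b2 set of day 3 (36.6 to 63.4%) and of day 4 (34.3 to 60.9%), and overlaps those of day 5 (28.4 to 50.9%) and day 7 (28.04 to 52.9%). The mean TPM of Mbnl3 was 5.999 and 7.35 at day 0, where the highest cell held 54.3% (b1) and 63.7% (b2) of the counts. It was 37.04 at day 7, where the highest cell (737 TPM) held 29.7% of the counts and the highest 3 held 55.4%. The median cell had 0 to 1.06 TPM in the 8 sets of 10 or more cells.

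As a family on the per-length scale, the 3 genes summed to 317 and 321 mean TPM at day 0, 159.9 at day 1, 213 and 256 at day 3, 176 at day 4, 66.6 at day 5 and 114.6 at day 7. Mbnl2 made up 37.4% and 42.5% of that sum at day 0 and 9.90% at day 7. Mbnl3 made up 1.89% and 2.29% at day 0, 12.6% at day 4, 16.1% at day 5 and 32.3% at day 7. Mbnl1 held 40.4 to 63.4% in the 8 sets with no order by day. Every cell of days 0 to 4 had at least 1 TPM in the summed trio, against 64 of 79 cells at day 5 and 53 of 65 at day 7. Among those cells Mbnl2 was the highest of the trio in 9 of 20 and 29 of 54 cells at day 0, in 34.4% at day 5 and 11.3% at day 7, and Mbnl3 was the highest in 0% at day 0, 15.6% at day 5 and 24.5% at day 7.

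**Figure D3:**
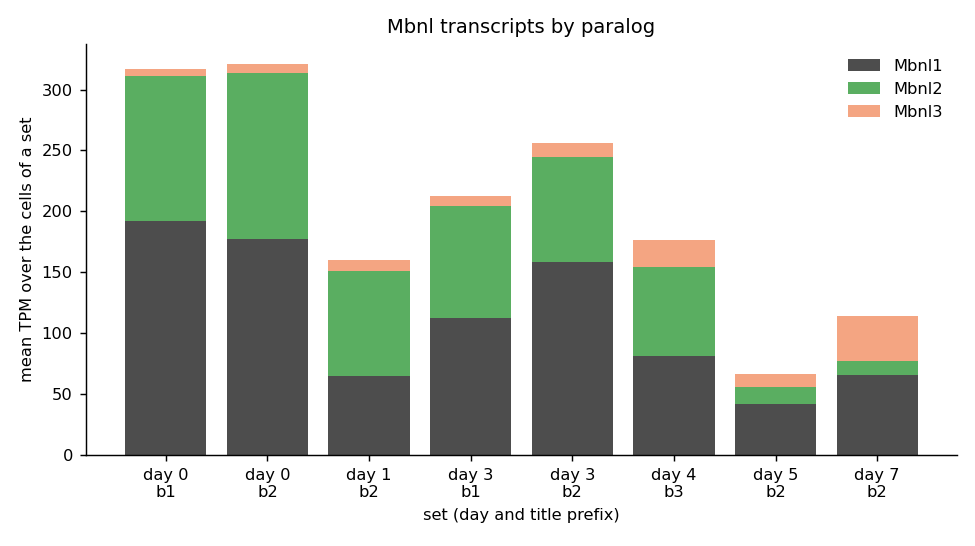
Mean TPM over the cells of a set (vertical axis), stacked by paralog, for the 8 sets of 10 or more cells (horizontal axis). The stack falls from 317 and 321 TPM at day 0 to 66.6 TPM at day 5 and 114.6 TPM at day 7, and the Mbnl3 layer makes up 32.3% of the last bar.

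The promoters of the 3 paralogs are shown because 2 of these relatives were called lower and 1 was not called. They come from RefSeq on build GRCm38.p6, 250 bases before to 50 after a gene start, and 3 of the 6 members matched the table, Mbnl1 with 2 starts. Capitals mark matches, on either strand, to the GC box GGGCGG, the CCAAT box CCAAT, the TATA box TATAAA and the E-box CACCTG. The first 2 are held by 35.7% and 37.4% of the 32851 promoter windows of 300 bases, the others by 13.6% and 20.2%. The chosen windows are chr3:60500929-60501228 (plus strand) for Mbnl1, chr14:120275419-120275718 (plus strand) for Mbnl2 and chrX:51205941-51206240 (minus strand) for Mbnl3.
Mbnl1: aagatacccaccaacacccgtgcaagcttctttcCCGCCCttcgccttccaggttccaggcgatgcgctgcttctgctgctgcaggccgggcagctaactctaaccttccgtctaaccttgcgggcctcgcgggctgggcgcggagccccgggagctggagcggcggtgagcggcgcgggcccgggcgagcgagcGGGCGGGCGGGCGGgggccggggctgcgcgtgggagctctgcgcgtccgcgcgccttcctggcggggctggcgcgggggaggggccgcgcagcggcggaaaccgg
Mbnl2: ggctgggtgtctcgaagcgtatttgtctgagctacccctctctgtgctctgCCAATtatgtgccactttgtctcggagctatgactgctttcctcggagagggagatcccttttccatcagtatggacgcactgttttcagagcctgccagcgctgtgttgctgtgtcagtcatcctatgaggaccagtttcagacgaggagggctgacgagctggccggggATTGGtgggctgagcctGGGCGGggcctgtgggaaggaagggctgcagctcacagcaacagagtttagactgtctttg
Mbnl3: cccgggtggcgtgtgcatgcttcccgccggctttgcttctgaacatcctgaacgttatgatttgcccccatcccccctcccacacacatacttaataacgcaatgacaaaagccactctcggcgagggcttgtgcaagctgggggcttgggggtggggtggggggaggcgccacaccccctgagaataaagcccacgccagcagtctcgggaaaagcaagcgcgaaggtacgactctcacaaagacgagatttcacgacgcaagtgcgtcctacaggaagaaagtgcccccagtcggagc
The Mbnl1 window is 75% G and C, above 96.1% of all windows, and holds 4 GC box matches, some overlapping each other. The Mbnl2 window is 56.3% G and C, with 1 GC box and 2 CCAAT boxes, and the Mbnl3 window is 59% G and C with none of the 4 motifs. The other Mbnl1 window, chr3:60472580-60472879 (plus strand), is 39.3% G and C, with 2 CCAAT boxes and 2 TATA box matches. A match is a description of letters and not a bound site.

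Rbfox2 showed no change that passed the test. The day 0 sets already differed, with 71.1 CPM (b1) and 215 CPM (b2). Day 1 had 97.5 CPM, day 3 had 67.5 and 66.9 CPM, day 4 had 49.6 CPM, day 5 had 81.03 CPM and day 7 had 62.3 CPM. Days 1 and 5 lie inside the range of day 0, and days 3, 4 and 7 lie below both of its sets. The log2 fold change against day 0 was -1.09 ± 0.459 (SE) at day 3 (edgeR adjusted p = 0.249), -1.53 ± 0.599 at day 4 (0.201), -0.82 at day 5 (0.615) and -1.20 ± 0.588 at day 7 (0.273).

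The 2 prefixes gave different sizes for Rbfox2: day 3 stood at 0.95 times day 0 within b1 and at 0.311 times within b2. Without the b1 set of day 0, Rbfox2 was called lower at day 3 (adjusted p = 0.0105), day 4 (0.00868) and day 7 (0.027). Without the b2 set of day 0 its log2 fold change turned to 0.45 at day 1 and 0.19 at day 5, neither past the threshold. Cells at 1 TPM or more made up 17 of 20 and 47 of 54 cells at day 0, then 77.6% of cells at day 1, 78.7% and 84.5% at day 3, 86.4% at day 4, 74.7% at day 5 and 39 of 65 cells at day 7 (exact interval 47.1 to 71.96%). The median cell had 10.95 and 28.1 TPM at day 0, 6.99 TPM at day 5 and 3.95 TPM at day 7.

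**Figure D4:**
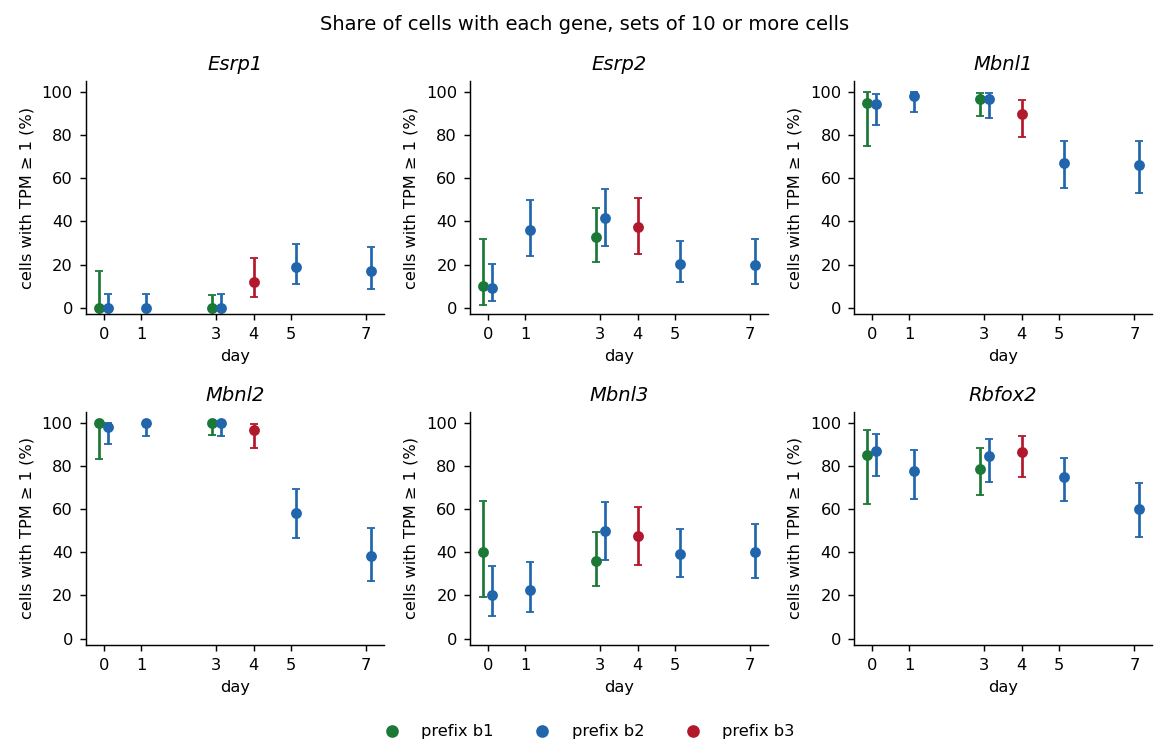
Share of cells at 1 TPM or more (vertical axis, percent) by day (horizontal axis) in the 8 sets of 10 or more cells, with exact 95% Clopper-Pearson intervals. Mbnl2 goes from 53 of 54 cells in the b2 set of day 0 to 25 of 65 cells at day 7, and Esrp1 reaches 15 of 79 cells at day 5.

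Set against all genes, the members were called as follows. They were chosen with earlier results of these data known, so the shares beside them are a description and not a test. By edgeR, 0 of 6 were called at day 1 against day 0, where 1.18% of all genes tested were called, and 0 of 6 at day 3, where 3.14% were. At day 4 it was 1 of 6 against 3.03% of genes, at day 5 it was 3 of 6 against 4.73%, and at day 7 it was 3 of 6 against 6.6%. Day 5 against day 3 called 3 of 6 where 1.71% of genes were called, and day 7 against day 5 called 0 of 6 where 0.554% were. At an unadjusted edgeR p under 0.05 there were 1 of 6 at day 1 (Mbnl1; 7.13% of genes), 2 at day 3 (Mbnl2 and Rbfox2; 11.6%), 4 at day 4 (10.3%), 3 at day 5 (13.7%), 6 at day 7 (16.3%), 3 for day 5 against day 3 (8.25%) and 0 for day 7 against day 5 (4.2%). DESeq2, which called more genes, called 0 of 6 at day 1 (3.2% of genes), 1 at day 3 (7.01%), 1 at day 4 (5.58%), 3 at day 5 (9.73%), 5 at day 7 (13%), 3 for day 5 against day 3 (4.46%) and 0 for day 7 against day 5 (2.11%). In each of the comparisons with 3 calls by edgeR they were Esrp1, higher, and Mbnl1 and Mbnl2, lower. A limma fit of log2(mean TPM + 1) over the same sets called 0 of all genes in every comparison, and so none of these members.

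**Figure D5:**
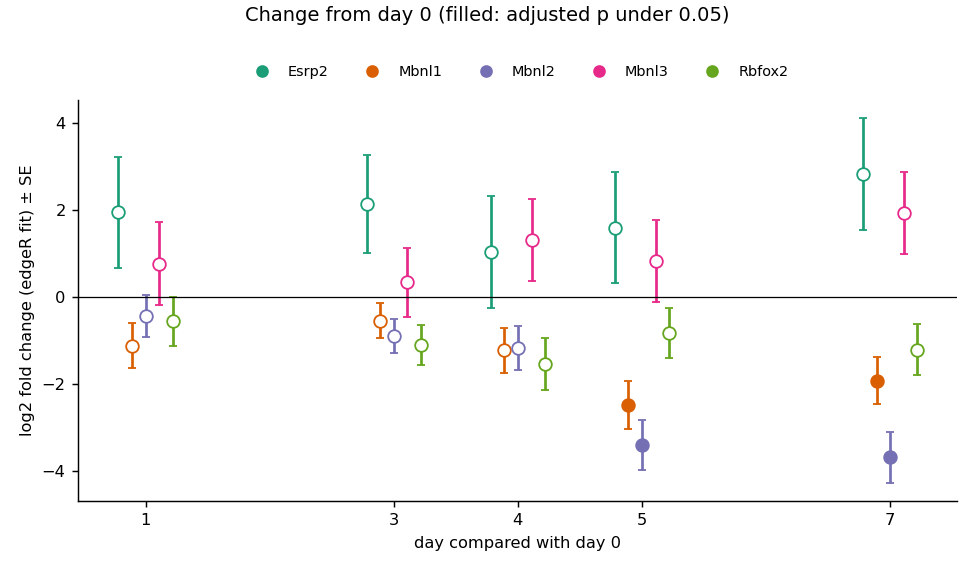
Fitted log2 fold change against day 0 with its SE (vertical axis) for the 5 members other than Esrp1 at days 1, 3, 4, 5 and 7 (horizontal axis); filled points passed the edgeR test. Only Mbnl1 and Mbnl2 at days 5 and 7 are filled, between -1.92 and -3.68, and Esrp1 is left out because its day 0 level is 0.

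Genes of the general splicing machinery, and the lists after them, were counted in the same fit. Over all genes tested it called 0.554% (day 7 against day 5) to 6.6% (day 7 against day 0). For lists of 13 or 8 genes, 0 calls lie near these shares. None of the 13 SR proteins, which define exons in most transcripts, was called by edgeR in any of the 7 comparisons, with at most 1 under 0.05 unadjusted and at most 1 called by DESeq2. Their median log2 fold change was 0.13 at day 5 and 0.26 at day 7, where the median of all genes was 0. None of the 31 core spliceosome genes was called by edgeR in the 7 comparisons either, with at most 3 under 0.05 unadjusted and at most 1 called by DESeq2, and their median was 0.48 at day 5 and 0.31 at day 7. The 8 RBFOX and CELF genes outside the members gave 0 calls by edgeR, 0 under 0.05 unadjusted, and at most 1 by DESeq2. Srsf1, a founding SR protein, had 179.9 ± 9.06 CPM (SD, n = 2 sets) at day 0 and 163 CPM at day 7 (log2 fold change -0.14, edgeR adjusted p = 0.983).

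Among 33 other tissue-type regulators, 1 rose at days 3, 4, 5 and 7 and 2 fell at day 7. Of all genes tested, 3.14%, 3.03%, 4.73% and 6.6% were called on these days in either direction, so the counts lie near those shares. The gene that rose was Rbm47, an RNA-binding protein of epithelial tissues, at 54.4 ± 17.6 CPM (SD, n = 2 sets) at day 0, 211 CPM at day 5 and 196 CPM at day 7, with log2 fold changes of 1.96 ± 0.425 (SE) at day 3 (edgeR adjusted p = 0.000376), 1.96 at day 5 (0.00212) and 1.85 at day 7 (0.00388). The 2 that fell at day 7 were Rbms1 (log2 fold change -2.23, adjusted p = 0.00394) and Rbms3 (-2.92, adjusted p = 0.0069), single-stranded nucleic acid binding proteins. Ptbp1, a broad repressor of neuronal exons, went from 108.01 ± 25.3 CPM (SD, n = 2 sets) to 282 CPM at day 7 (log2 fold change 1.38, adjusted p = 0.0762). Qk, the quaking protein, went from 674 ± 135 CPM to 448 CPM (-0.59, adjusted p = 0.603). Celf1, whose product often opposes muscleblind proteins, went from 107.96 ± 4.97 CPM to 161 CPM (0.57, adjusted p = 0.666).

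Of 15 genes with exons known to be set by these regulators, 3 fell at day 3, 2 at day 4, 4 at day 5 and 5 at day 7 against day 0, and none rose. Their median log2 fold change was -1.12 at day 5 and -0.88 at day 7, against 0 over all genes. Mbnl1 and Mbnl2, which regulate their own exons, are 2 of the 15. Both are among the genes that fell at days 5 and 7. The counts and medians of those days thus repeat in part the result for the members. Fgfr2, whose mutually exclusive exons are a classic ESRP target, went from 112.1 ± 5.16 CPM (SD, n = 2 sets) at day 0 to 14.3 ± 12.2 CPM at day 3, 6.78 CPM at day 5 and 14.2 CPM at day 7, with log2 fold changes of -2.97 ± 0.605 (SE) at day 3 (edgeR adjusted p = 0.000105) and -2.98 ± 0.807 at day 7 (0.00625). Cd44, with variable exons under ESRP control, went from 419.9 ± 81.4 CPM to 97.1 ± 59.4, 45.97 and 14.6 CPM at days 3, 5 and 7, with -4.85 ± 0.661 at day 7 (adjusted p = 4.43e-11). Foxp1, whose stem-cell exon is a muscleblind target, did not pass the test (-1.80 at day 5, adjusted p = 0.0729; -1.55 at day 7, 0.128). The other gene that fell at days 3 and 7 was Fn1, the fibronectin gene (-1.61 at day 7, adjusted p = 0.0184), named here beyond the rule and after its values were seen.

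Epithelial and mesenchymal genes were set beside the members because ESRP proteins belong to epithelia. Of 18 epithelial genes 5 rose and 1 fell at day 5, and 8 rose and none fell at day 7. Elf3, Ap1m2 and Rab25 had 0 counts in both day 0 sets, as Esrp1 did, and 31.8, 41.6 and 8.19 CPM at day 5. Grhl2 and Ovol1 also had 0 counts in both day 0 sets, and only 1.39 and 0.0214 CPM at day 5. Grhl2 and Ovol1 are named beyond the rule and after their values were seen. Epcam, an epithelial adhesion molecule, rose from 0.0898 CPM at day 0 to 51.1 CPM at day 5 (log2 fold change 9.38, edgeR adjusted p = 8.25e-13) and was called by day 3. Cdh1, the E-cadherin gene, had 27.8 ± 14.2 CPM (SD, n = 2 sets) at day 0, 81.9 CPM at day 5 (log2 fold change 1.56, adjusted p = 0.103) and 267 CPM at day 7 (3.27, adjusted p = 1.42e-06). Krt18, a keratin that fibroblasts in culture also make, fell at day 5 (-2.90, adjusted p = 0.000982).

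Of 7 mesenchymal regulators 2 fell at day 5 and 4 at day 7. Prrx1, a homeobox gene of mesenchyme, had 343 CPM at day 0, 15.2 CPM at day 5 and 23.1 CPM at day 7 (log2 fold change -3.89 ± 0.634, edgeR adjusted p = 8.93e-08), and Snai2 had 62.4 CPM at day 0 and 3.30 CPM at day 7 (-4.24, adjusted p = 0.00481). Snai1 and Twist2 were the other 2 at day 7 (adjusted p = 0.0118 and 0.00726). Zeb1 and Zeb2, repressors of ESRP genes in other systems, did not pass the test: Zeb1 had 43.1 ± 3.90 CPM at day 0 and 20.2 CPM at day 7 (-1.09, adjusted p = 0.539), and Zeb2 had 55.3 ± 23.2 and 17.03 CPM (-1.70, adjusted p = 0.212).

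Marker lists of cell types moved with the same days. Summed over 8 fibroblast markers, the level was 3014 to 3129 CPM at day 0, 747 CPM at day 1, 418 to 592 CPM at day 3, 284 CPM at day 4, and 150.3 and 150.2 CPM at days 5 and 7, with no marker at 0 in any of the 8 sets. The small b1 sets, outside the fit, had 1398 CPM at day 5 and 1625 CPM at day 7. 5 of 8 fell at day 5 and 6 of 8 at day 7, Col1a1, Col1a2 and Lox among them at both. The 10 pluripotency markers were all called higher at days 3, 4, 5 and 7, and their summed level went from 0.287 and 0.424 CPM at day 0 to 2641 CPM at day 5 and 4424 CPM at day 7. Dppa5a, a marker of pluripotent cells, was at 1334 and 2563 CPM on these days. What part these changes in cell state have in the fall of Mbnl1 and Mbnl2 or the rise of Esrp1 was not tested.

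Markers of other cell types that a fibroblast culture could hold were also summed. The 5 blood markers summed to at most 19.1 CPM in the 8 sets. The 4 keratinocyte markers summed to at most 2.04 CPM in these sets. Of 5 muscle markers Myod1 was at 0 in all 8 sets and Des fell (-5.00 at day 5, edgeR adjusted p = 0.000274). The endothelial list summed to 2.75 and 17.8 CPM at day 0 and 77.97 CPM at day 7, with Tek and Emcn called higher at day 5 and Tek and Pecam1 at day 7. The neural list went from 25.4 and 51.6 CPM at day 0 to 235.5 CPM at day 5 and 249 CPM at day 7, with Stmn2 called higher at both and Tubb3 at day 7. Their part in the results for the members was not tested.

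At days 4, 5 and 7 most cells with Esrp1 also had Cdh1 and Dppa5a. At day 7 most cells of the set had each of these 2 genes, with or without Esrp1. At day 5, 13 of the 15 Esrp1 cells had Cdh1 at 1 TPM or more, where 40 of all 79 cells did, and 14 of 15 had Dppa5a, where 59 of 79 did. At day 7 these were 10 of 11 for Cdh1, where 54 of 65 cells had it, and 11 of 11 for Dppa5a, where 57 of 65 had it. At day 4, 6 of 7 had Cdh1 (33 of 59 cells) and 5 of 7 had Dppa5a (27 of 59). Mbnl2 was at 1 TPM or more in 6 of 7 Esrp1 cells at day 4, 4 of 15 at day 5 and 5 of 11 at day 7, where 57 of 59, 46 of 79 and 25 of 65 of all cells had it. These are counts within 3 sets of cells and carry no test.

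Rank correlations across the cells of a set describe the same layout. At day 5 (79 cells of 1 set) Spearman's rho of Esrp1 was 0.477 with Dppa5a, 0.476 with Epcam and 0.426 with Cdh1, beside 0.150 with the total count of a cell, and at day 7 (65 cells) it was 0.153, 0.373 and 0.032. Mbnl2 had rho of -0.422 with Dppa5a and -0.419 with Pou5f1 at day 5, and -0.244 and -0.368 at day 7, beside -0.202 and -0.128 with the total count. Mbnl1 and Mbnl2 had a rho of 0.321 and 0.313 at days 5 and 7, and -0.082 to 0.242 in the 6 earlier sets. The number of genes detected in a cell had a rho of 0.302 and 0.307 with Mbnl1 and of 0.204 and 0.257 with Mbnl2 on days 5 and 7, and of -0.139 and 0.107 with Esrp1, and its part in these values was not tested. Mbnl1 and Mbnl3 had 0.412 at day 5 and 0.089 at day 7. Mbnl3 had rho of -0.444 with Dppa5a and -0.348 with Pou5f1 at day 5, and -0.311 and -0.351 at day 7. In the b2 set of day 3 these were 0.238 and 0.313, and at day 4 they were -0.103 and -0.054. Many of the values at days 5 and 7 are 0 for these genes, which limits what a rank correlation shows.

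The genes whose summed levels ran most like each member over the 8 sets were found among 8986 genes, or 8985 where the member is itself one of them, with at least 20 CPM in their highest set. For Esrp1 they were Dnmt3l (Pearson r of log2 CPM 0.998), Tcl1, Ap3b2 and Zfp987; Dnmt3l, a cofactor of DNA methylation in germ cells and stem cells, had 0 CPM at days 0 and 1, 3.68 CPM at day 4, 27.5 CPM at day 5 and 20.6 CPM at day 7. For Esrp2 they were Snx27 (0.981), Bysl, Glb1 and Nomo1. For Mbnl1 they were Lrrfip1 (0.974), Fam102b, Bmpr2 and Bcl2l1. For Mbnl2 they were Col12a1 (0.994), a fibril-associated collagen, Pcolce, a collagen-processing enhancer, Zfp36l2 and Flnc. For Mbnl3 they were Ubr7 (0.957), Celf1 and Nr6a1, and for Rbfox2 Ergic3 (0.974), Sdf4, Smtn and Ppib, which all share its high b2 set at day 0. These are descriptions over 8 points that share their days and sets with each other.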

How the data were processed

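Cells were grouped by the day and prefix in their titles. Per the submitters' processing notes RSEM 1.2.22 was used, and the authors deposited a table of expected counts per gene and a table of TPM values. The aligner and genome build are not given in any source used here. Sums of the expected counts over each set's cells were rounded, filtered by filterByExpr, scaled by TMM and fitted with edgeR 4.0.16 (R 4.3.3) by day, with 2 residual degrees of freedom and no block. The threshold was an adjusted p of 0.05. Scripts were tested on simulated data. Of the deposited TPM values, a level of 1 counted a cell as having a gene. Sets under 10 cells entered no main test. Alternatives were DESeq2 1.42.0, limma 3.58.1 on log2(mean TPM + pseudocount), other filters, scaling and sets, and omission of each day 0 and day 3 set. Omission of the highest cell was chosen after seeing the data. Genes outside the 6 members were named if called at day 5 or 7 against day 0, at most 4 per list and direction, with a few always named, and by likeness over 8 sets, where 1 gene is not reported here. The members and lists were chosen with earlier results of these data known. Symbols came from a table of gene identifiers that matched 31426 of 31673.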

Additional observations from a re-analysis of the deposited data

Results flagged for a closer look

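Both small b1 sets, which entered no main test, held a member above the 2 day 0 sets. In the 5 b1 cells of day 5, Esrp1 was at 6.54 CPM of the library totals, where both day 0 sets had 0 counts; 1 of the 5 cells was at 1 TPM or more (7.10 TPM) and held 98.6% of the counts. In the 2 b1 cells of day 7, Mbnl3 was at 81.1 CPM, above 9.09 and 12.8 CPM at day 0, and 1 of the 2 cells (131 TPM) held all of it. Other values lay below both day 0 sets there. Esrp2 was at 0.0133 CPM at day 5 and 0.999 CPM at day 7, against 2.28 and 3.46 CPM at day 0. Mbnl3 was at 1.204 CPM in the day 5 cells. Mbnl1 (180.6 and 142.5 CPM) and Mbnl2 (139.9 and 39.4 CPM) lay below in both small sets. Rbfox2 lay below in the day 7 cells (26.9 CPM) and inside the range of day 0 in the day 5 cells (113.2 CPM). Esrp1 had 0 counts in the 2 b1 cells of day 7.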

How the results depend on the processing

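With 2 residual degrees of freedom the calls depend on how the spread is estimated. DESeq2 called 1 member at day 3 (Esrp2) and 5 at day 7, all but Rbfox2, where it called 7.01% and 13% of all genes. With all 10 sets the counts were 0 at days 4 and 5, 1 at day 7 (Mbnl2) and 0 for day 5 against day 3. limma on log2(mean TPM + 1) called 0 of all genes in every comparison, with 1407 to 3501 under 0.05 unadjusted, and with a pseudocount of 0.1 it called 1 member at day 7 (Esrp1) and 0 at days 4 and 5 and for day 5 against day 3. The prefix as a replicate block gave 0 members at day 4, 2 at day 5 (Mbnl1 and Mbnl2), 1 at day 7 (Mbnl2) and 0 for day 5 against day 3; same-prefix deviations correlated at 0.057 for b1 and b2 over days 0 and 3, the only pair, and what the prefix stands for is not known. Leaving out 1 set of day 0 or day 3 gave 0 to 1 members at day 3, 0 to 2 at day 4, 3 at day 5, 2 to 4 at day 7 and 0 to 3 for day 5 against day 3.

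Directions that turned were all of uncalled values. With all 10 sets Mbnl3 was at -0.07 at day 5 and -0.44 for day 5 against day 3, and Mbnl1 at -0.20 for day 7 against day 5. With the block Rbfox2 was at -0.18 for day 5 against day 3. Leaving out single sets of day 0 or day 3 gave Rbfox2 -1.14 to 0.45 at day 1 and -1.41 to 0.19 at day 5, the upper ends without the b2 cells of day 0, and Mbnl3 -0.06 to 0.66 at day 3, the lower end without the b2 cells of day 3. The cause was not tested. Over all genes the calls against day 0 ran from 0 to 716 at day 1, 1569 at day 3, 1248 at day 4, 2178 at day 5 and 2904 at day 7, with DESeq2 the highest, and from 0 to 998 for day 5 against day 3 and 0 to 472 for day 7 against day 5. Library totals without TMM moved the median log2 fold change of all genes from 0.11 to 0.41 at day 3 and from 0 to 0.30 at day 4, and the share of higher calls from 66.9% to 78% and from 68.2% to 80%, with the same members called.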
